A study of Mus musculus with 4 samples.

Results

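The SOCS family of cytokine feedback inhibitors was examined for chromatin immunoprecipitation (ChIP-seq) peaks of 2 Ikaros family zinc finger factors, Eos and Helios, in mouse regulatory T cells (Treg cells). The family has 8 genes (Socs1, Socs2, Socs3, Socs4, Socs5, Socs6, Socs7 and Cish) among the 21887 protein-coding genes of the gene table. A peak was taken as belonging to one of them when its summit lay inside the gene, or when the protein-coding gene end nearest to the summit, within 100 kb, was an end of that gene. By this rule 6 of the 1106 anti-Eos peaks and 3 of the 469 anti-Helios peaks belonged to the family, and all 9 were at Socs1, Socs3 or Cish.

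The study made 4 libraries, 1 for each antibody and genotype, from splenic cells purified with a CD4+CD25+ kit. The peak lists used here are WT anti-Eos (clone 18H2) and WT anti-Helios (D8W4X), both from wild-type mice, with no age, sex or strain named in the labels. The 2 libraries from Eos-flox x Foxp3-Cre mice, in which Foxp3-expressing cells delete Eos (Eos cKO), were not analysed here. All cells were fixed for 10 min in 1% formaldehyde, and each immunoprecipitation took 6 µg of antibody. With 1 library per group there is no replicate error, so values of the 2 antibodies stand side by side without a test, and intervals cover counting error only.

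SOCS proteins limit signalling by cytokine receptors. Cytokines activate receptor-bound Janus kinases (JAKs), these activate STAT transcription factors, and STATs in turn induce several SOCS genes, whose products act back on the receptor or the kinase. Each family member carries an SH2 domain, which docks on phosphotyrosine, and a SOCS box, which recruits elongins and a cullin ubiquitin ligase. In Treg cells, which depend on interleukin-2 and STAT5, SOCS1 is known to protect Foxp3 expression and suppressive function.

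The peaks mostly rested on few fragments. The authors' fold enrichment had a median of 7.31 over the anti-Eos list and 7.66 over the anti-Helios list, over a control that no source used here names. Fragment counts at the summit, worked out from those folds and the p-values, had a median of 14 in the anti-Eos list and 18 in the anti-Helios list. Of 5 CD4 T cell marker genes, Cd3d and Lat held summits of both antibodies and Cd3e, Cd3g and Cd4 held 0. Of 6 Treg marker genes, Ikzf2, Ikzf4, Il2ra and Tnfrsf18 held anti-Eos summits, Tnfrsf18 also an anti-Helios summit, and Foxp3 and Ctla4 held 0. The 5 B cell, 4 CD8 and NK cell, 5 myeloid and 4 erythroid marker genes examined held 0, but a summit was found at only 4.38% (anti-Eos) and 2.12% (anti-Helios) of all protein-coding genes, so a count of 0 over lists this short is near that share and does not bear on the cell type. Peaks do not measure RNA, and the labelled cell type could not be checked further from these files.

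The sequences before the starts of Socs1 and Socs3 are shown because peaks reached into them, and the stretch at the start of Cish because the anti-Eos peak began inside it. They are taken from RefSeq promoters of GRCm38.p6, in which 4 of the 8 genes (Socs1, Socs3, Socs4 and Cish) have an entry, 5′ to 3′ along the gene. Capitals mark matches, on either strand, to GGGAA (the core recognised by Ikaros family factors), TTCNNNGAA and TTCNNNNGAA (STAT sites) and GAAANNGAAA (an interferon response element). Overlapping matches were kept.
Socs1, chr16:10785537-10785786, minus strand: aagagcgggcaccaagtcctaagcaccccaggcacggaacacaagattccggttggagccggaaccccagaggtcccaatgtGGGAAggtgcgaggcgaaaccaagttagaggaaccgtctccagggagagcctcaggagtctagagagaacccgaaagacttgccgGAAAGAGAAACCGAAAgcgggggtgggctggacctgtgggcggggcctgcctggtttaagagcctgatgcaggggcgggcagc
Socs3, chr11:117969367-117969616, minus strand: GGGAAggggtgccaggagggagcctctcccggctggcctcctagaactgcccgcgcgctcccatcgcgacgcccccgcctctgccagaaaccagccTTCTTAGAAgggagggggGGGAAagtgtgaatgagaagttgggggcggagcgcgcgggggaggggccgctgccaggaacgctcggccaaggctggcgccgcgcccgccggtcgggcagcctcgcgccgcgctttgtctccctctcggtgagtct
Cish, chr9:107296659-107296680, plus strand: TTCCTGGAAagTTCTTGGAAat

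Socs1, which encodes an inhibitor that blocks JAK kinases directly, carried the strongest peaks of the family with both antibodies. The gene spans 1729 bp (chromosome 16, 10783808 to 10785536, minus strand), and both peaks lay over its start. The anti-Eos peak ran from 10785318 to 10786000 with a fold of 21.9 (95% interval 15.8 to 29.6) and 40 fragments over a local background of 0.871. The anti-Helios peak ran from 10785045 to 10785591 with a fold of 20.5 (15.2 to 27.2) and 46 fragments over 1.05. In rank by fold they were number 10 of 1106 with anti-Eos and number 2 of 469 with anti-Helios.

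The 2 summits at Socs1 were 20 bp apart, 126 bp past the start with anti-Eos and 106 bp past it with anti-Helios. Around this common point the peaks extended unequally. The anti-Eos peak reached 464 bp before the start and 218 bp past it, and the anti-Helios peak 55 bp before and 491 bp past, so that they shared 274 bp. The anti-Eos peak therefore covered all 250 bases printed above, including the GGGAA and the overlapping pair of GAAANNGAAA matches at 83 and 77 bases before the start. The anti-Helios peak covered the last 55 of these bases and none of the matches.

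A second anti-Eos peak at Socs1 lay outside the gene (10772313 to 10772437), 11.4 kb past its 3′ end. Its fold was 6.50 (3.75 to 10.6) with 14 fragments, rank 747. The nearest anti-Helios summit was 13056 bp from it, at the start of the gene. The protein-coding genes on either side of it other than Socs1 were Clec16a, 27496 bp away, and Tnp2, a sperm chromatin gene, 15561 bp away.

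**Figure D1:**
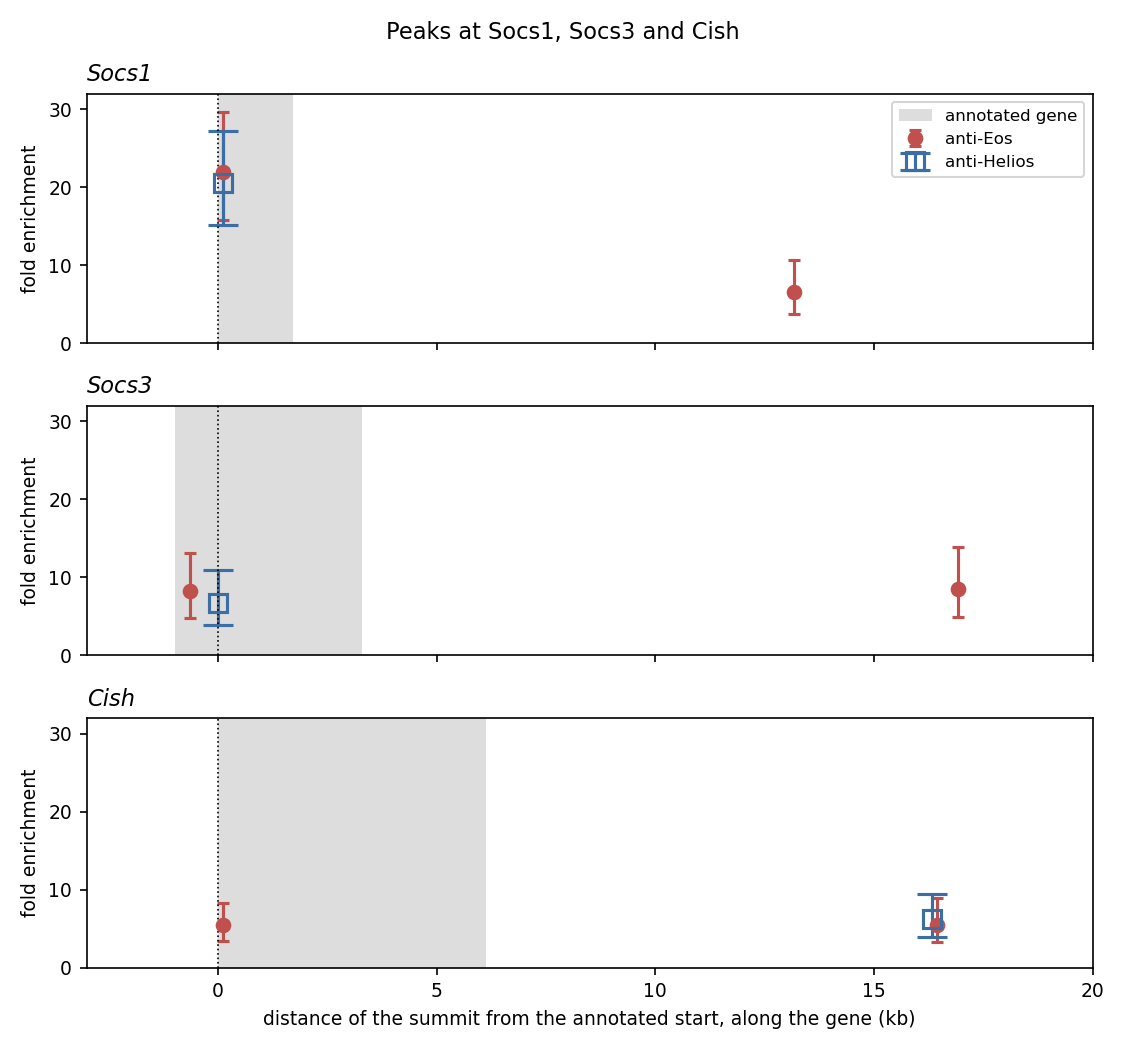
Summits at Socs1, Socs3 and Cish by distance from the annotated start along the gene (kb, horizontal) and fold enrichment (vertical), filled circles for anti-Eos and open squares for anti-Helios. Bars are 95% Poisson intervals of the fragment count carried to the fold, and grey marks the annotated gene. In each gene an anti-Eos summit lies within 1 kb of the start and another 10.3 to 13.6 kb past the 3′ end, and at Socs1 both folds at the start exceed 20.

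Socs3, the other member with a JAK-blocking segment, which acts mainly at receptors of the interleukin-6 type, also had peaks of both antibodies near its start, but at different places. The gene table gives chromosome 11, 117966079 to 117970336, on the minus strand, and the RefSeq promoter entry puts a start 970 bp inside that outer end, at 117969366. The anti-Helios peak (117969229 to 117969449, fold 6.77, interval 3.93 to 11.0, 14 fragments) had its summit 2 bp before this start. The anti-Eos peak (117969876 to 117970080, fold 8.23, 4.83 to 13.2, 15 fragments) had its summit 646 bp before it. That summit was still inside the gene span, 324 bp from the outer end. The summits were 644 bp apart and the peaks did not overlap.

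The anti-Helios peak covered the last 83 of the 250 bases printed for Socs3, and the anti-Eos peak none of them. The TTCTTAGAA and both GGGAA matches of that window were in neither peak. A further anti-Eos peak (117952325 to 117952481, fold 8.51, 4.91 to 13.9, 14 fragments) lay 13.6 kb past the 3′ end, with Tha1 at 78913 bp and Pgs1 at 33858 bp as the next protein-coding genes. The nearest anti-Helios summit was 16929 bp from it. The ranks by fold of the anti-Eos peaks were 398 near the start and 356 past the end, of 1106. That of the anti-Helios peak was 305 of 469.

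**Figure D2:**
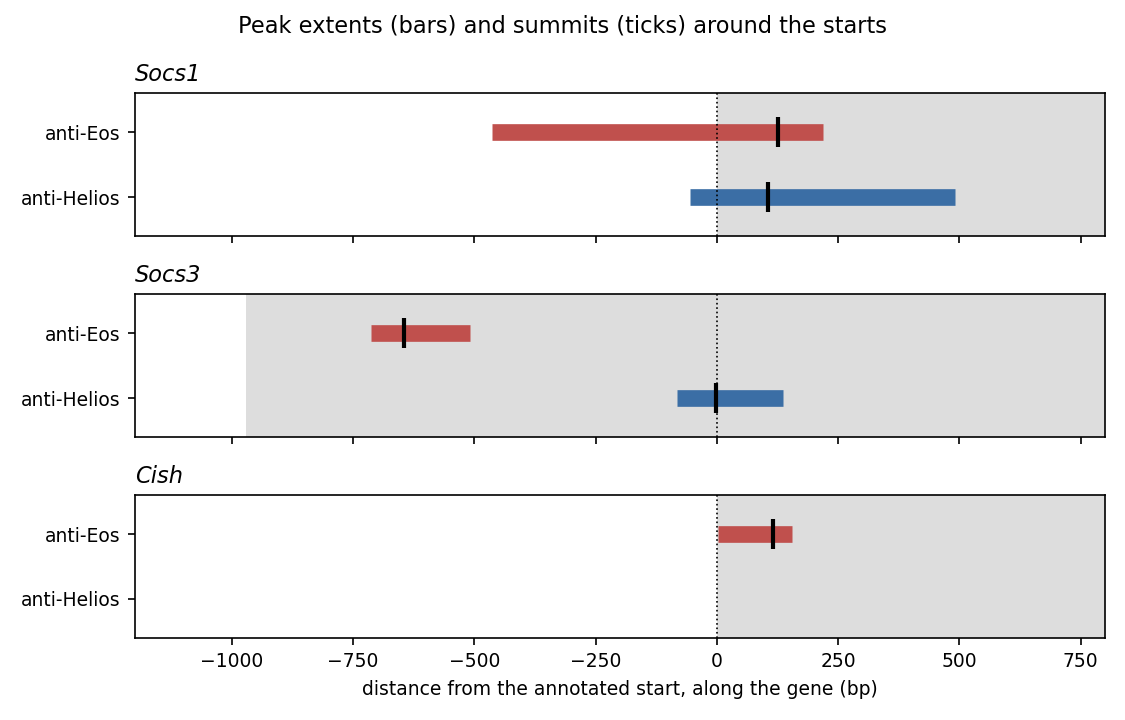
Extents of the peaks (bars) and their summits (ticks) from 1200 bp before to 800 bp after the annotated starts, in bp along the gene, anti-Eos above anti-Helios, with the annotated gene in grey. At Socs1 the summits are 20 bp apart, at Socs3 they are 644 bp apart with no overlap, and at Cish there is an anti-Eos peak alone.

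Cish encodes CIS, which is induced by STAT5 and docks on phosphorylated receptor tails. It had an anti-Eos peak at its start and a pair of overlapping peaks beyond its 3′ end. The gene lies on chromosome 9 from 107296659 to 107302784, plus strand. At the start, the anti-Eos peak (107296662 to 107296815) had a fold of 5.48 (3.45 to 8.33), 20 fragments over a local background of 2.83, and a summit 115 bp past the start. The nearest anti-Helios summit was 16214 bp from it.

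The 22 bases printed for Cish hold a tandem of STAT matches, TTCCTGGAA at the start base itself and TTCTTGGAA 11 bases further. The anti-Eos peak began 3 bases into the match at the start, leaving 6 of its 9 bases covered, and covered all 9 of the other. The summit lay beyond both. The GGGAA of the Cish window, 198 bases before the start, was outside the peak.

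Past the 3′ end of Cish, the anti-Eos peak (107313025 to 107313179) had a fold of 5.54 (3.25 to 8.92) with 15 fragments over 1.89. The anti-Helios peak (107312958 to 107313143) had a fold of 6.22 (3.93 to 9.43) with 20 fragments over 2.04. The summits were 105 bp apart, 10.3 and 10.2 kb past the end, and the peaks shared 119 bp. Hemk1 was 13989 bp from the anti-Eos summit and Mapkapk3 23216 bp.

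Among the 9 peaks the local background was highest at Cish. The anti-Eos peak at its start had more fragments than either anti-Eos peak of Socs3 (20 against 15 and 14) and a lower fold (5.48 against 8.23 and 8.51). By fold it ranked 945 of 1106. With 5 in place of 1 added to fragments and background it ranked 491, while the Socs1 start peak ranked 11 with anti-Eos and 4 with anti-Helios. With nothing added, the Cish start peak ranked 1028, and the Socs1 start peak 11 with anti-Eos and 2 with anti-Helios.

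**Figure D3:**
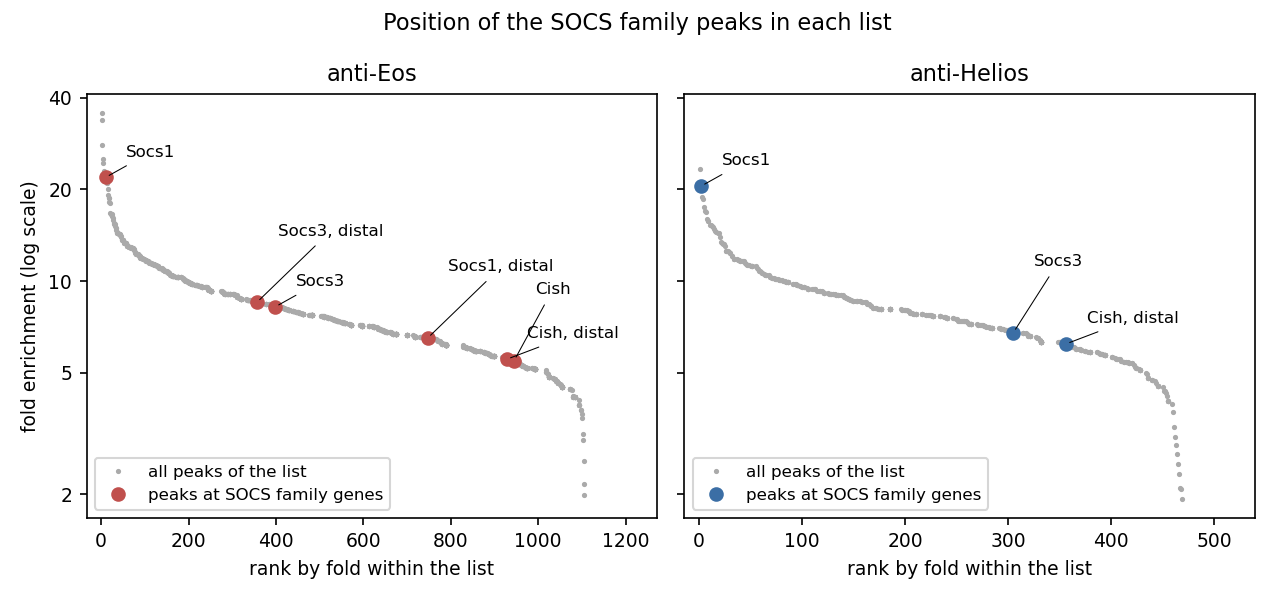
Fold enrichment (log scale) against rank by fold within the list, for all 1106 anti-Eos peaks (left) and all 469 anti-Helios peaks (right), with the family's peaks in colour and those over 1 kb from the start marked distal. The Socs1 start peaks stand at ranks 10 (anti-Eos) and 2 (anti-Helios). The others lie between ranks 356 and 945 of 1106 with anti-Eos, and at 305 and 356 of 469 with anti-Helios.

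Socs2 encodes a regulator of growth hormone signalling in mice, and had no peak of its own. The nearest anti-Eos summit was 97.8 kb away but 88 bp from an end of Ube2n, to which it belongs (fold 7.27), and the nearest anti-Helios summit was 954 kb away. The members with long N-terminal regions, Socs4, Socs5, Socs6 and Socs7, were also without a peak. The nearest anti-Eos summit was 455 kb from Socs4, 806 kb from Socs5, 6340 kb from Socs6 and 174 kb from Socs7, and anti-Helios summits were farther from each. The lists hold no place with a -log10 q under 2.08 (anti-Eos) or 2.24 (anti-Helios), so weaker signal at these 5 genes would not appear in them. Besides the Ube2n summit, 3 summits within 100 kb of a family member belonged to other genes. These were a summit of each antibody inside Tha1, 94.0 kb from Socs3, and an anti-Eos summit inside Hemk1, 31.8 kb from Cish (fold 8.43).

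The 3 genes with peaks were the shortest of the 8. They span 1729, 4258 and 6126 bp, against 19183 to 36251 bp for the 5 without a peak. Over all protein-coding genes the order was the other way, since 2.40% of the 5786 genes of up to 6126 bp and 5.09% of the 16101 longer genes held an anti-Eos summit. For anti-Helios these shares were 1.30% and 2.41%.

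Of the family, 3 of 8 genes held an anti-Eos summit, against 4.38% of all protein-coding genes, and 3 of 8 an anti-Helios summit, against 2.12%. The same 3 genes held both, against 1.54% of all genes, and each had 2 anti-Eos summits, against 0.649% of all genes with 2 or more. All protein-coding genes include those that are silent in T cells, and how far accessible or active chromatin alone would give such shares was not tested. The median fold of the family's 6 anti-Eos peaks was 7.37 beside 7.31 over the list, and that of its 3 anti-Helios peaks 6.77 beside 7.66.

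Overlap with the other antibody held for 2 of the 6 anti-Eos peaks (27.9% over the anti-Eos list) and for 2 of the 3 anti-Helios peaks (65.9% over that list). These are the pair at the Socs1 start and the pair past Cish. Their summit gaps of 20 and 105 bp compare with a median of 30.5 bp over all 310 overlapping pairs (interquartile range 13.0 to 64.0 bp), so the Cish summits were farther apart than most. Ordered by the smaller fold of the pair, Socs1 stood at place 1 and Cish at place 247 of 310.

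Summits within 1 kb of an annotated start made up 3 of the 6 anti-Eos summits (36.0% of the anti-Eos list on chromosomes with promoter entries) and 2 of the 3 anti-Helios summits (48.9%). The other 3 anti-Eos summits were those past the 3′ ends of Socs1, Socs3 and Cish, and with a limit of 10 kb in place of 100 kb they drop out, as does the anti-Helios summit past Cish. Of 17492 protein-coding genes with a promoter entry, 0.0629% had an anti-Eos summit within 1 kb of a start and another assigned to them past the 3′ end. Socs1, Socs3 and Cish were 3 of these 11 genes, and the fourth member with an entry, Socs4, had neither summit. The pattern itself was set with the family's peaks known, so this share describes it and is no test.

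With the distance past the 3′ end narrowed to 5 to 20 kb, a window chosen after the family's values were seen, 0.0229% of genes remained. These were Socs1, Socs3, Cish and Tmem154 (10559 bp past its end). Without regard to which gene a summit was assigned to, the same window gave 0.154%, or 27 genes, with the 3 family members among them. The summits past the ends had 14 or 15 fragments each, and a link between them and these genes was not tested.

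**Figure D4:**
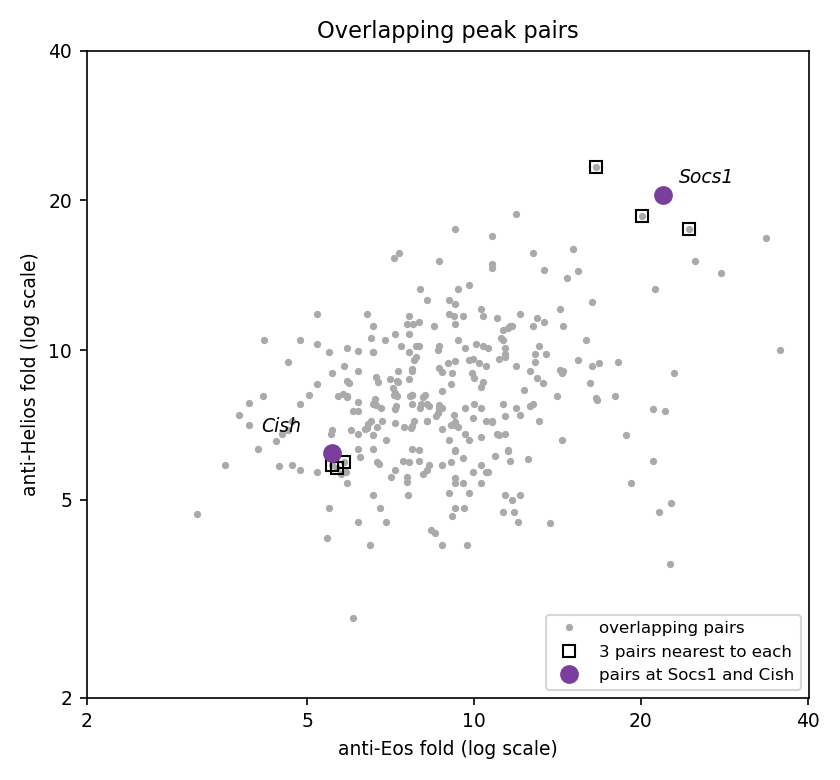
Anti-Eos fold (horizontal) against anti-Helios fold (vertical), both on log scales, for the 310 overlapping peak pairs, with the pairs at Socs1 and Cish filled and the 3 pairs nearest to each boxed. Socs1 lies in the upper right at 21.9 and 20.5, and Cish in the lower left at 5.54 and 6.22.

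The overlapping pairs most like those of the family were found by distance over the 2 log2 folds, a measure over 2 libraries only. Nearest to the Socs1 pair was the pair in Flt3l, a cytokine gene (anti-Eos fold 20.1, anti-Helios 18.6, distance 0.19), followed by those at the ribosomal protein gene Rps19 (24.4 and 17.5, distance 0.28) and in Arih1 (16.6 and 23.3, distance 0.44). Around the Cish pair many others lay close. The nearest was in Arhgdib (5.54 and 5.87, distance 0.08), then a pair in Tpcn1 (5.83 and 5.95, distance 0.10) and a pair 159634 bp from any protein-coding gene end (5.67 and 5.79, distance 0.11).

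The promoter matches were set beside all 21263 promoter entries of protein-coding genes, each 300 bases long. GGGAA occurred in 63.0% of them, and in all 4 family entries, including 3 matches in Socs4, which had no peak. TTCNNNGAA occurred in 7.69%, and in Socs3 and Cish, with 2 or more matches in 0.404%, among them Cish. GAAANNGAAA occurred in 3.35%, with 2 or more matches in 0.259%, among them Socs1. TTCNNNNGAA occurred in 6.35% and in 0 of the 4. A match is a description of these letters and shows no binding.

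Upstream of the family in the pathway, cytokine receptor chains held anti-Eos summits at 7 of 28 genes, against 4.38% of all protein-coding genes. Anti-Helios summits were at 3 of these 28, against 2.12%. Il2rb and Il6ra, which encode chains of the interleukin-2 and interleukin-6 receptors, held both, inside the gene, with anti-Eos folds of 10.3 and 8.66 and anti-Helios folds of 12.1 and 15.1 at the overlapping peaks. Ifnar1, a chain of the type I interferon receptor, had an anti-Helios summit 54 bp from an end (8.60). Among the genes with anti-Eos summits alone, those of highest fold were Il2ra (7.27), Ifngr2 (6.05), Il10rb (5.66) and Il21r (5.46). The Il2ra and Il10rb summits lay inside the gene. The Ifngr2 summit lay 13.5 kb away, and Il21r had summits 1.21 and 9.07 kb away. The Il10rb peak had 10 fragments, and the Il21r peaks 11 and 7.

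Of 11 JAK and STAT genes, 2 had an anti-Eos summit (18.2%, against 4.38% of all protein-coding genes) and 0 an anti-Helios summit (against 2.12%). Jak1, a kinase that SOCS1 and SOCS3 inhibit, had an anti-Eos summit 26.9 kb outside the gene (10.4) and another inside it whose nearest gene end was that of Raver2 (9.09), and Stat4 had a summit inside the gene (7.03). Stat5a and Stat5b, which encode the main STATs downstream of interleukin-2, held 0 in both lists. Counts of 0 over so few genes are near the shares over all genes.

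Other inhibitors of cytokine signalling held anti-Eos summits at 2 of 21 genes, the phosphatase genes Ptpn11 (8.02, 23.4 kb away) and Ptpn6 (6.57, inside). Anti-Helios summits were at 3 of 21, Ptpn1 (9.42) and the ubiquitin ligase gene Cbl (7.38), both inside the gene, and Dusp6 (7.37, 1430 bp away). None of these 5 genes held both. Among 10 genes for ubiquitin ligase subunits that work with the SOCS box, Rbx1 had 2 anti-Eos summits, 46.5 and 46.9 kb away, and 0 genes had an anti-Helios summit. Of 25 genes for other SOCS-box proteins, Asb2 (8.84 and 7.20, inside) and Spsb1 (8.75, 39.7 kb away) held anti-Eos summits and 0 an anti-Helios summit. The anti-Eos shares of the lists of 21, 10 and 25 genes were 9.52%, 10.0% and 8.0%, against 4.38% of all protein-coding genes. The anti-Helios share of the 21 was 14.3%, against 2.12%, and counts of 0 over 10 and 25 genes are near 2.12%.

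**Figure D5:**
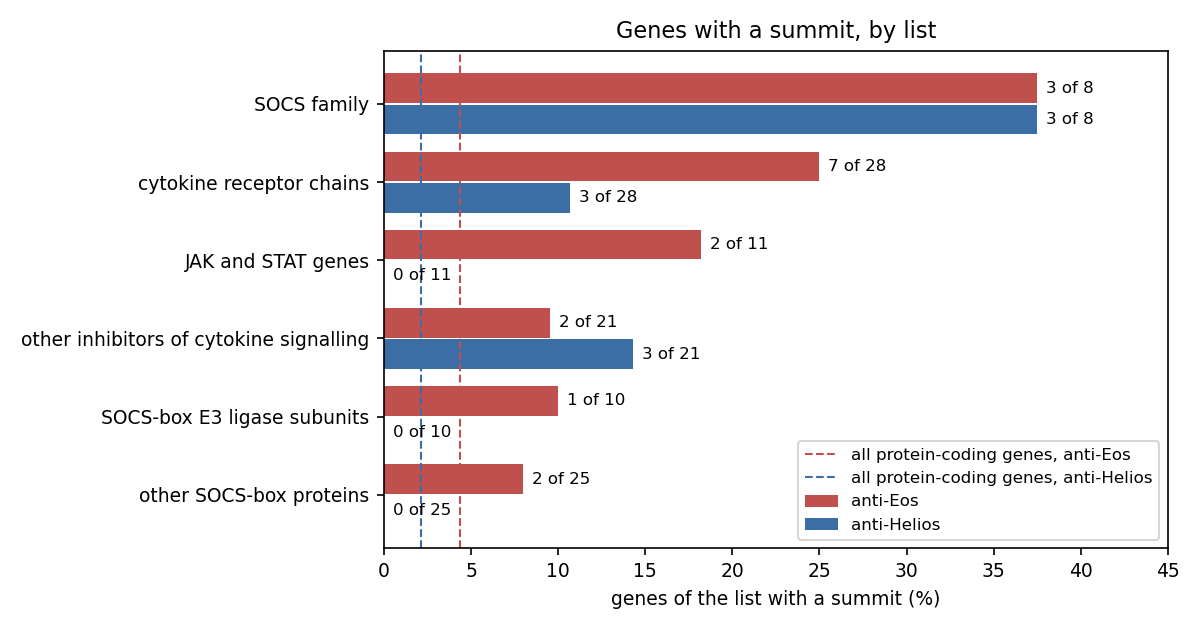
Percentage of genes with a summit in the SOCS family and in 5 lists of related genes, anti-Eos above anti-Helios in each, with the number of genes beside each bar and dashed lines at 4.38% (anti-Eos) and 2.12% (anti-Helios) for all protein-coding genes. The family has 3 of 8 with each antibody. In the JAK and STAT, ligase subunit and other SOCS-box lists 0 anti-Helios summits were found, which over lists this short is near 2.12%.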

How the data were processed

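Per the submitters' processing notes, the tools were BWA 0.7.1, SAMtools 1.17, cutadapt 4.4, deepTools 3.5.1 and Picard, and the build was GRCm38.p6 (mm10). No source used here names the peak caller or the control. The deposited lists hold the authors' fold (a ratio over background), -log10 p-value and -log10 q-value, a score that is 10 times the -log10 q, cut to a whole number, and the offset of the summit (another number per peak). Peaks were called per library.

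Fragments and local background were solved from each fold, with 1 added to either side of the ratio, and each p, as a Poisson tail. This inference from the values gave whole fragments (within 0.005) for 100% of peaks at a scale of 1 (anti-Eos) or 0.895 (anti-Helios). Intervals are exact 95% Poisson intervals of the fragments at fixed background. The solving step was tried on simulated peaks built with the same formulas, which cannot show that the unnamed caller used them. Summits are column 2 plus column 10, written 1-based. Overlap means at least 1 bp.

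Gene spans and promoters are RefSeq, GRCm38.p6. Transcription starts come from the promoter entries, and exons were not used. The members, gene lists and windows were chosen with earlier results of these data known. Named were every member and member peak, list genes with summits of both antibodies and up to 5 others a list by fold, the neighbours of each peak, and the 3 most similar pairs. Python 3.11.15, SciPy 1.17.1 and pandas 2.3.3 were used.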

Additional observations from a re-analysis of the deposited data

How the results depend on the processing

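Counts of SOCS family summits and genes were recomputed with distance limits of 10 and 500 kb, a -log10 q of at least 5, all annotated genes, the nearest end only, and without peaks over more than 3 control fragments. The 6 anti-Eos summits became 3 with the 10 kb limit, and the number of genes with one was 3 under each of these. Anti-Helios summits and genes were 2 with the 10 kb limit and 3 otherwise. The anti-Eos peaks with an overlapping anti-Helios peak, 2 of 6, became 1 of 3 with the 10 kb limit and 1 of 6 with summits required within 100 bp. They were 3 with peaks within 1 kb, and 2 with overlap of 50% of the shorter peak or a -log10 q of at least 5. The median fold of the family's peaks was 7.37 (anti-Eos) and 6.77 (anti-Helios). It was 13.3 and 12.5 with no pseudocount, and 3.25 and 3.25 with a pseudocount of 5, as the construction of a ratio over few background fragments gives. Genes with anti-Eos summits at the start and past the 3′ end, 3 in number, became 2 with a limit of 500 bp from the start. This alternative was chosen after seeing the data. The Socs3 summit is 646 bp from the start in its promoter entry, though 324 bp from the outer end of the gene. No paired analysis was possible because each group has 1 library. Leaving out a replicate was likewise not possible.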
